A study of Mus musculus with 4 samples.

Results

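The genes that carry proteins into mitochondria and fold or degrade them there were examined in RNA sequencing of brown adipose tissue (BAT). Members were the rows named Tomm or Timm followed by a digit, together with Hspd1, Hspe1, Hspa9, Grpel1, Grpel2, Dnajc19, Pam16, Pmpca, Pmpcb, Lonp1, Clpp, Clpx and Trap1, with pseudogene names left out. The rule found 39 of 55387 rows. It uses names only, but the members were chosen with earlier results of these data known. The tissue came from 15-week-old males on a C57BL/6 background kept at room temperature, 2 of the control genotype Sox4f/f and 2 of their Sox4-MKO littermates. Both genotypes carry the floxed Sox4 alleles, and the labels call Sox4f/f wild type. In Sox4-MKO mice a Cre recombinase driven by Myf5 acts in precursors of brown adipocytes and skeletal muscle, so the deletion is not restricted to brown fat. The comparison asked which genes differ in BAT when the transcription factor SOX4 is deleted in that lineage.

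Nearly all mitochondrial proteins are made in the cytosol. They cross the outer membrane through the TOM complex and are then handed to the TIM23 complex, which passes presequence proteins into the matrix, or to small Tim chaperones and the TIM22 complex, which insert carriers into the inner membrane. In the matrix, mitochondrial Hsp70 pulls the chain inward, a peptidase cuts the presequence off, Hsp60 with Hsp10 folds the protein, and the LON and CLP proteases degrade what is damaged. Brown adipocytes are packed with mitochondria, and UCP1 itself is a carrier protein of the inner membrane.

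Levels are FPKM, fragments scaled to transcript length and to the mapped fragments of the library, as the authors deposited them. From the value of 1 fragment in low genes, depth was estimated at 12200000 to 16300000 fragments per library, and the lowest tested member rested on roughly 55 to 96 fragments per kb. Sox4 itself had 1.98 and 1.06 FPKM in Sox4f/f mice 1 and 2 and 0.981 and 3.06 FPKM in Sox4-MKO mice 1 and 2 (log2 fold change 0.20 ± 0.43 SE, adjusted p = 0.843 by limma), so the level of the targeted gene did not separate the libraries as labelled. Sox4-MKO below means the libraries that carry this label. Brown adipocyte markers were present in all 4 libraries, with Ucp1 between 733 and 1935 FPKM. Skeletal muscle markers summed to 192 and 714 FPKM in Sox4f/f and to 13811 and 2506 FPKM in Sox4-MKO mice 1 and 2, so Sox4-MKO mouse 1 stood apart.

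Genes called lower in the Sox4-MKO libraries belonged to most steps of import and folding, and the differences were modest. Of the 36 members above the FPKM limit of 1, 35 had a negative log2 fold change, although only 23 did when libraries were rescaled to a common sum of all FPKM. The study defined regulated genes by a p-value under 0.05 and an averaged FPKM above 1 in at least 1 genotype. With the same limits applied to the unadjusted p of limma, a test the study does not name, 12 members were called lower and 0 higher. Those 12 are 33.3% of the members tested, against 8.28% of all 12877 genes called lower and 7.95% called higher. After Benjamini-Hochberg adjustment over all genes, 0 members and 0 genes of any kind passed, and with 2 mice against 2 an exact permutation test cannot go below p = 0.333. In 28 members (77.8%) both Sox4-MKO values lay below both Sox4f/f values, against 29.6% of all genes. The call of Timm50 was kept under all 13 alternatives and that of Timm22 under all but 1, whereas 2 to 5 alternatives lost the call of Clpp, Timm13, Timm44, Pam16, Timm17a, Trap1 and Tomm40, and 6 to 10 that of Hspa9, Timm21 and Tomm40l. The median log2 fold change of the members was -0.310 and ranged from -0.636 to 0.111, beside a median of -0.051 over all genes. In bulk tissue, fewer cells of a type and less RNA per cell cannot be told apart.

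**Figure D1:**
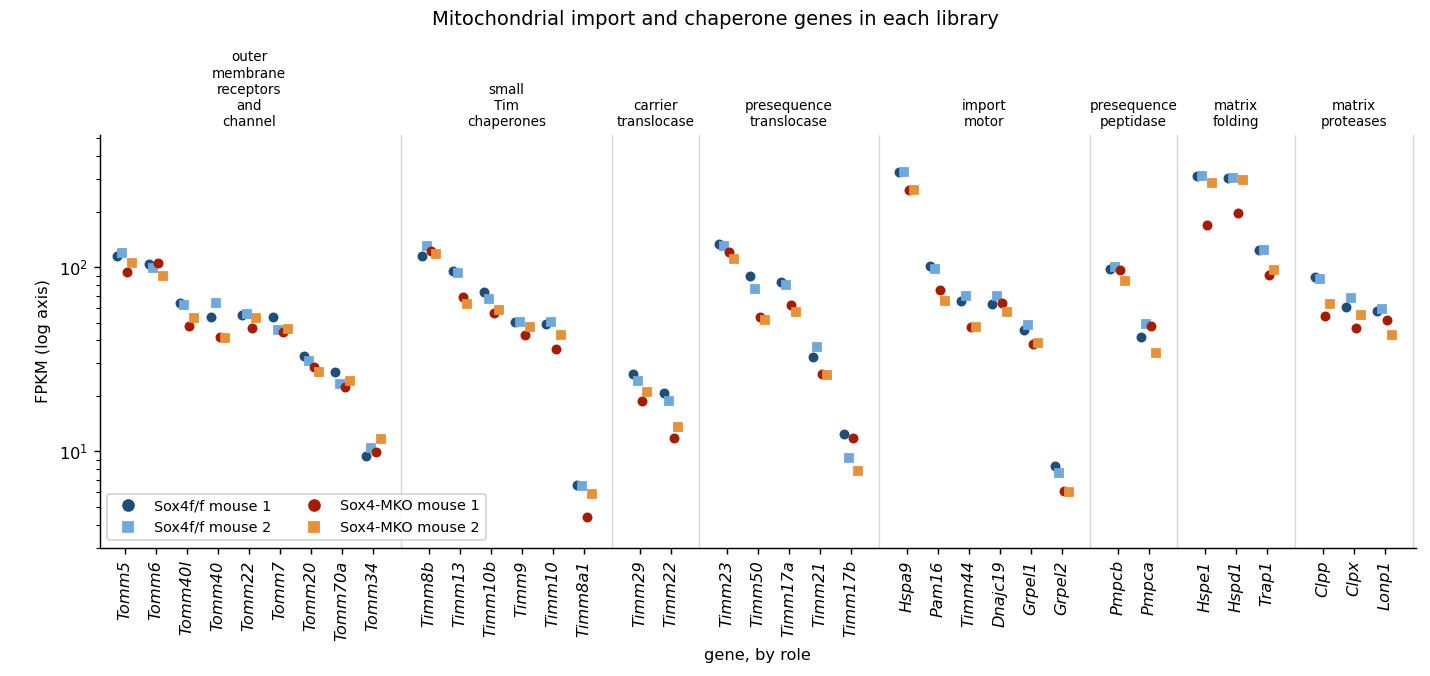
FPKM on a log axis for each of the 36 members tested, grouped by role, with 1 point per library (circles mouse 1, squares mouse 2, blue Sox4f/f, red and orange Sox4-MKO). Hspa9, Hspd1 and Hspe1 stand highest in Sox4f/f, at 304 to 328 FPKM, Timm8a1 and Grpel2 lowest, and Sox4-MKO mouse 1 falls well below the other 3 libraries for Hspd1 and Hspe1.

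Levels spanned a wide range. The matrix chaperones Hspa9, Hspe1 and Hspd1 had Sox4f/f means of 328, 312 and 304 FPKM, followed by Timm23 at 132 FPKM, Trap1 at 124 FPKM and Timm8b at 122 FPKM. The lowest tested members were Timm17b at 10.8 FPKM, Tomm34 at 9.89 FPKM, Grpel2 at 7.96 FPKM and Timm8a1 at 6.54 FPKM. Summed over the members, the libraries held 2996 and 3007 FPKM in Sox4f/f and 2324 and 2507 FPKM in Sox4-MKO. As a share of each library's FPKM sum these were 0.518% and 0.552% against 0.469% and 0.531%, which overlapped between the genotypes. The FPKM sum itself was lower in Sox4-MKO, at 495145 and 472062 against 578011 and 544564, and mitochondrially encoded transcripts made up 46017 and 64432 FPKM of it against 124605 and 96475. Of the 37 mitochondrially encoded rows, 4 that were abundant in a library were listed at 0 in another, and they held 54865 and 20750 FPKM in Sox4f/f and 0 in Sox4-MKO. Without them the mitochondrially encoded sums were 69740 and 75725 FPKM in Sox4f/f, so a common sum of all FPKM rests partly on these rows. With libraries brought to a common sum of all FPKM, the median of all genes moved from -0.051 to 0.135. The members' median then stood at -0.105, or -0.240 relative to that of all genes, beside -0.259 in the values as deposited.

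In the outer membrane, the channel genes were called lower and the receptor genes were not. Whether channel and receptors differ was not tested. Tomm40, the beta-barrel channel of the TOM complex (chr7:19701313-19715438, minus strand, GRCm38), had 53.9 and 64.0 FPKM in Sox4f/f and 41.5 and 41.2 FPKM in Sox4-MKO. Its log2 fold change was -0.50 ± 0.14 (SE; unadjusted p = 0.017, adjusted p = 0.232, limma). The paralogue Tomm40l (chr1:171216011-171222514, minus strand) was transcribed at a like level, with 63.4 and 62.2 FPKM against 47.8 and 52.9 FPKM. Its log2 fold change of -0.32 ± 0.12 had an unadjusted p of 0.048 and an adjusted p of 0.302 by limma, and the call was lost under 10 of the 13 alternatives. Tomm40 made up 45.9% and 50.7% of the combined FPKM of both channel genes in Sox4f/f and 46.5% and 43.8% in Sox4-MKO, so the balance between them overlapped.

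Tomm20, the presequence receptor whose protein the study stained to mark mitochondria, had 32.8 and 30.9 FPKM in Sox4f/f and 28.5 and 27.0 FPKM in Sox4-MKO. The groups did not overlap, but the log2 fold change of -0.19 ± 0.12 did not pass (adjusted p = 0.476, limma), and it became 0.02 on a common sum of all FPKM. The receptors Tomm22 and Tomm70a, at 89.9% and 92.5% of the Sox4f/f mean, and the small subunits Tomm5, Tomm6 and Tomm7, at 85.1% to 95.1%, were not called. Tomm5, the most abundant gene of the complex, had 115 and 119 FPKM against 93.5 and 106 FPKM (log2 fold change -0.23 ± 0.12, adjusted p = 0.405, limma). Tomm34, a cytosolic cochaperone of preproteins, was the only tested member with a positive log2 fold change, 0.11 ± 0.16, and its values of 9.37 and 10.4 against 9.87 and 11.7 FPKM overlapped. The median over the 9 outer membrane genes was -0.153, or -0.102 relative to all genes, and 0.057 on a common sum of all FPKM. Tomm20l was listed at 0 in all 4 libraries. Tomm6os, which the rule took in by name, is a transcript antisense to Tomm6 and lay between 0.493 and 1.00 FPKM, under the limit for the test.

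Among the small Tim chaperones, which shield hydrophobic proteins in the intermembrane space, Timm13 was called lower. Timm13 (chr10:80899450-80900969, minus strand) had 94.7 and 92.4 FPKM in Sox4f/f and 69.2 and 63.1 FPKM in Sox4-MKO, a log2 fold change of -0.50 ± 0.11 (unadjusted p = 0.009, adjusted p = 0.214, limma). Its partner Timm8b, the most abundant small Tim gene, showed no such separation, with 115 and 130 FPKM against 123 and 117 FPKM. Its log2 fold change was -0.03 ± 0.12 (adjusted p = 0.927, limma) and its sign changed under several alternatives. Timm8a1, the other gene whose protein pairs with that of Timm13, had 6.58 and 6.49 FPKM against 4.40 and 5.89 FPKM and was not called (log2 fold change -0.31 ± 0.19, adjusted p = 0.472, limma). Timm9, Timm10 and Timm10b, which act with the carrier translocase, were at 89.5%, 78.8% and 82.4% of the Sox4f/f mean without overlap and without a call. Of all genes, 29.6% lay below without overlap. Timm8a2 was above 0 in 1 library only, at 0.199 FPKM in Sox4f/f mouse 2. The 6 tested genes had a median of -0.290.

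Timm22, the channel that inserts carriers into the inner membrane (chr11:76406952-76416292, plus strand), was among the members that differed most. It had 20.8 and 18.7 FPKM in Sox4f/f and 11.8 and 13.6 FPKM in Sox4-MKO, or 64.5% of the Sox4f/f mean. The log2 fold change was -0.60 ± 0.15 (unadjusted p = 0.011, adjusted p = 0.219, limma). Its partner Timm29 had 26.2 and 24.2 FPKM against 18.8 and 20.9 FPKM, which did not overlap but did not pass (log2 fold change -0.33 ± 0.13, adjusted p = 0.319, limma). Timm22 was the only member with a promoter window in which the SOX core AACAAAG was found, on either strand. Windows run from 250 bases before to 50 bases after the start site in RefSeq (GRCm38.p6), and 4.61% of the tested genes and 6.68% of all genes with a window held that core. The stretch is shown because SOX4 is the factor deleted, with the core in capitals.
Timm22, chr11:76406742-76406766, plus strand: tggcttagaAACAAAGcagacacgc

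The presequence translocase held the largest log2 fold change of any member. Timm50, the receptor that takes presequences from the TOM complex (chr7:28305516-28312072, minus strand), had 89.5 and 76.0 FPKM in Sox4f/f and 53.6 and 51.9 FPKM in Sox4-MKO, or 63.7% of the Sox4f/f mean. Its log2 fold change of -0.64 ± 0.13 had an unadjusted p of 0.006 and an adjusted p of 0.210 by limma, and it stayed called on a common sum of all FPKM, together with Timm22 and Timm13. Timm17a, which lines the channel with Timm23 (chr1:135295213-135313778, minus strand), had 83.5 and 79.5 FPKM against 62.6 and 57.2 FPKM (log2 fold change -0.44 ± 0.12, adjusted p = 0.229, limma). Both Sox4-MKO libraries were below both Sox4f/f libraries for these genes, as for 29.6% of all genes. In Timm50 and Timm17a the gap was wider than the spread within either genotype.

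Timm21, which links the translocase to the outer membrane and to the respiratory chain, had 32.3 and 36.9 FPKM in Sox4f/f and 26.4 and 25.8 FPKM in Sox4-MKO (log2 fold change -0.39 ± 0.13, unadjusted p = 0.033, adjusted p = 0.268, limma). This call was lost under 8 of the 13 alternatives, among them every fit without 1 library and the replicate block. The channel gene Timm23 was the most abundant of this complex and was not called, with 133 and 130 FPKM against 121 and 110 FPKM. Its log2 fold change of -0.19 ± 0.11 (adjusted p = 0.465, limma) became 0.03 on a common sum of all FPKM. Timm17b, the paralogue of Timm17a on the X chromosome, had 12.4 and 9.21 FPKM against 11.8 and 7.86 FPKM, which overlapped, and log2 fold change -0.13 ± 0.26. Timm17a made up 87.1% and 89.6% of the FPKM of both paralogues in Sox4f/f and 84.1% and 87.9% in Sox4-MKO, so their proportions also overlapped. Whether the fold changes of the paralogues differ was not tested.

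The import motor had 3 of its 6 genes called lower, beside 8.28% of all genes. With the replicate block 2 were called lower, beside 7.28% of all genes. On a common sum of all FPKM 0 were, beside 2.56% of all genes. Hspa9, mitochondrial Hsp70 and the most abundant member, had 328 FPKM in both Sox4f/f mice, and 262 and 264 FPKM in Sox4-MKO mice 1 and 2. Its log2 fold change of -0.32 ± 0.11 (unadjusted p = 0.031, adjusted p = 0.265, limma) came with an SD of 0.286 FPKM within Sox4f/f and 1.40 FPKM within Sox4-MKO (n = 2 mice each). The Hspa9 call was lost under 6 of the 13 alternatives, among them the replicate block, either Sox4f/f mouse left out and a common sum of all FPKM. Timm44, which tethers Hsp70 to the channel (chr8:4259731-4275913, minus strand), had 65.1 and 69.3 FPKM against 47.3 and 47.5 FPKM (log2 fold change -0.49 ± 0.11, unadjusted p = 0.008, adjusted p = 0.214, limma). Pam16, a regulator of the motor's J protein (chr16:4616464-4624988, minus strand), had 101 and 97.7 FPKM against 75.0 and 65.1 FPKM (log2 fold change -0.50 ± 0.13, unadjusted p = 0.012, adjusted p = 0.222, limma). For all 3 genes called as deposited, the Sox4-MKO libraries were similar to each other. They lay below both Sox4f/f libraries, as for 29.6% of all genes.

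The nucleotide exchange factors Grpel1 and Grpel2, which reset Hsp70, were lower in both Sox4-MKO libraries without being called. Such a separation was seen in 29.6% of all genes. Grpel1 had 45.4 and 48.4 FPKM against 38.2 and 38.8 FPKM (log2 fold change -0.28 ± 0.11, adjusted p = 0.329, limma). Grpel2 had 8.28 and 7.65 FPKM against 6.07 and 5.99 FPKM (log2 fold change -0.35 ± 0.15, adjusted p = 0.336, limma). Grpel1 supplied between 84.6% and 86.6% of the FPKM of both in every library, with overlap between the genotypes. Dnajc19, a J protein of the inner membrane, had 62.7 and 70.0 FPKM against 63.9 and 56.7 FPKM, which overlapped. The peptidase that removes presequences was not called in either subunit. Pmpcb, its catalytic subunit, had 97.0 and 99.7 FPKM against 96.8 and 84.3 FPKM, and Pmpca 41.6 and 49.1 FPKM against 48.0 and 34.3 FPKM, with log2 fold changes of -0.12 ± 0.12 and -0.15 ± 0.21.

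**Figure D2:**
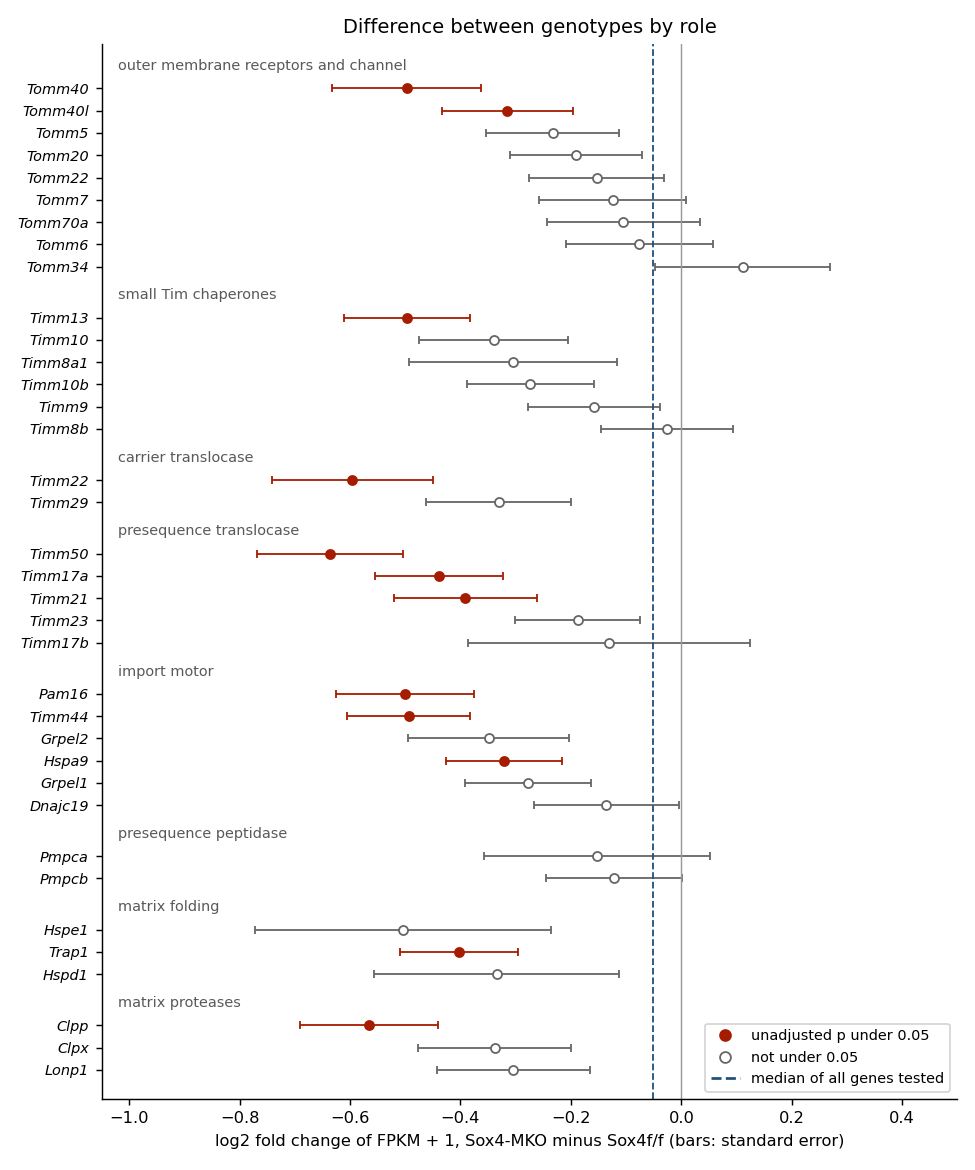
Log2 fold change of FPKM + 1 (Sox4-MKO minus Sox4f/f) of the 36 members tested by role, with bars of 1 standard error, red where the unadjusted limma p was under 0.05, and a dashed line at the median of all genes tested. Points lie left of 0 except Tomm34, and the called members lie in 7 of the 8 roles, with none in the presequence peptidase. On a common sum of all FPKM 13 members lie right of 0.

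Matrix folding genes were either low in both Sox4-MKO libraries or low chiefly in Sox4-MKO mouse 1. Trap1, the mitochondrial Hsp90 (chr16:4039971-4077827, minus strand), had 124 FPKM in both Sox4f/f libraries and 91.0 and 95.8 FPKM in Sox4-MKO (log2 fold change -0.40 ± 0.11, unadjusted p = 0.015, adjusted p = 0.229, limma). Hspd1 (Hsp60) had 304 FPKM in both Sox4f/f libraries, 196 FPKM in Sox4-MKO mouse 1 and 296 FPKM in Sox4-MKO mouse 2. Hspe1 (Hsp10), its lid, had 311 and 314 FPKM in Sox4f/f, 169 FPKM in Sox4-MKO mouse 1 and 285 FPKM in Sox4-MKO mouse 2. Neither gene was called, with log2 fold changes of -0.33 ± 0.22 and -0.50 ± 0.27 (adjusted p = 0.495 and 0.416, limma). Without Sox4-MKO mouse 1 the log2 fold changes were -0.04 and -0.13, and without Sox4-MKO mouse 2 they were -0.63 and -0.88 and both genes were called. The ratio of Hspd1 to Hspe1 FPKM was 0.978 and 0.970 in Sox4f/f and 1.16 and 1.04 in Sox4-MKO mice 1 and 2.

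Hspd1 (chr1:55077835-55088243, minus strand) and Hspe1 (chr1:55088132-55091307, plus strand) are transcribed away from each other. Their main start sites in GENCODE M21 lie 107 bases of 68.2% G and C apart, and 2 further Hspd1 transcripts begin inside Hspe1 and span the gap. The gap held 4 alternating heat shock units, TTC or GAA with any 2 bases between them, which were also found in the windows of both genes but in only 0.0296% of all genes with a window and 0.0618% of those tested. Elements of 3 such units stood in the windows of 0.662% of all genes, in Timm9 among the other members and in 1 of 12 cytosolic chaperone windows, that of Hsph1. Units were searched in both orientations, and the longer element was looked for after a match to the half-sites GAANNTTC had been seen. Those half-sites were in 3 of 31 tested members with a window (9.68%) and in 0 of 9 called members. They were in 6.9% of tested genes and 9.04% of all genes with a window. Hspd1 and Hspe1 share 1 stretch, which counts for both genes. The stretches are shown because the levels of both genes split between the Sox4-MKO libraries, with the units and the bases between them in capitals.
Hspd1 and Hspe1, chr1:55088053-55088082, plus strand: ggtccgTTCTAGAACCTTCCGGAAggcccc
Timm9, chr12:71136859-71136883, minus strand: taggctTTCTAGAAATTTCgacaga
Hsph1, chr5:149636282-149636306, minus strand: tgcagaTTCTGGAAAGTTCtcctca

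Several chaperones of the cytosol differed widely between mice of 1 genotype. Hsph1 (Hsp110) had 47.6 and 80.3 FPKM in Sox4f/f mice 1 and 2 and 24.8 and 85.4 FPKM in Sox4-MKO mice 1 and 2. Hsp90aa1 (inducible Hsp90) had 122, 166, 59.6 and 199 FPKM in the same order, Hspa8 (constitutive Hsp70) 687, 944, 470 and 1030 FPKM, and Dnaja1, its J protein, 108, 163, 74.7 and 183 FPKM. All 4 genes, picked after their values were seen, were lowest in Sox4-MKO mouse 1 and highest in Sox4-MKO mouse 2. So were Hspa4, Stip1, Cct4, Cct6a and Cct8. Dnajb1, Hsp90ab1, Cct2, Cct3, Cct5, Cct7 and Tcp1 were instead highest in a Sox4f/f library. Hspd1 and Hspe1 were nearly equal in both Sox4f/f mice and did not exceed them in Sox4-MKO mouse 2. Of the 16 cytosolic chaperones tested, 0 were called at an unadjusted p under 0.05 by limma. Their median was -0.157, and it was 0.054 on a common sum of all FPKM. Without Sox4-MKO mouse 1 it was 0.141. Without Sox4-MKO mouse 2 it was -0.329, with all 16 genes lower, beside a members' median of -0.334. The 8 subunits of the cytosolic chaperonin, an Hsp60 relative, stood between 86.8% (Cct7) and 109% (Cct6a) of the Sox4f/f mean. Cct2, Cct5 and Cct7 were the only 3 of the 16 cytosolic chaperones below without overlap, beside 29.6% of all genes.

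**Figure D3:**
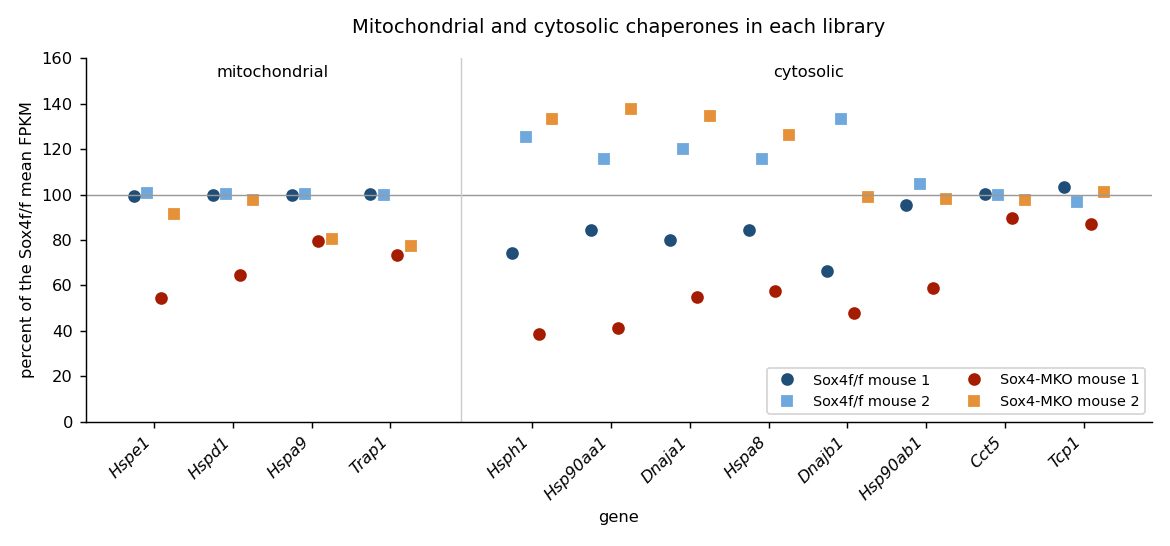
FPKM of 4 mitochondrial and 8 of the 16 cytosolic chaperones in each library, as a percent of the Sox4f/f mean (circles mouse 1, squares mouse 2). The cytosolic genes shown were picked after their values were seen. Hspa9 and Trap1 are low in both Sox4-MKO libraries, while Hspe1, Hspd1 and 6 of the cytosolic genes are lowest in Sox4-MKO mouse 1 by a wide margin.

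Among the matrix proteases, Clpp was called lower. Clpp, the peptidase of the CLPXP complex (chr17:56990305-56996188, plus strand), had 88.0 and 86.0 FPKM in Sox4f/f and 54.5 and 62.7 FPKM in Sox4-MKO, or 67.3% of the Sox4f/f mean (log2 fold change -0.57 ± 0.13, unadjusted p = 0.008, adjusted p = 0.214, limma). Clpx, the unfoldase that feeds it, had 61.1 and 67.8 FPKM against 47.0 and 54.7 FPKM (log2 fold change -0.34 ± 0.14, adjusted p = 0.328, limma). Lonp1, the LON protease, had 57.4 and 58.9 FPKM against 51.4 and 42.8 FPKM (log2 fold change -0.30 ± 0.14, adjusted p = 0.359, limma). None of the 3 overlapped between the genotypes, beside 29.6% of all genes that lay below without overlap.

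The difference was set out for each pairing of libraries. Taken over the 36 members, the median log2 difference was -0.342 from Sox4f/f mouse 1 to Sox4-MKO mouse 1, -0.272 from Sox4f/f mouse 1 to Sox4-MKO mouse 2, -0.337 from Sox4f/f mouse 2 to Sox4-MKO mouse 1 and -0.243 from Sox4f/f mouse 2 to Sox4-MKO mouse 2. Between the mice of 1 genotype it was -0.003 in Sox4f/f and 0.017 in Sox4-MKO. Leaving out Sox4-MKO mouse 1, the library with the most muscle RNA, gave a median of -0.253, or -0.164 relative to all genes, and 10 members called lower (27.8%, against 7.93% of all genes). Leaving out Sox4-MKO mouse 2 gave a median of -0.334, or -0.330 relative to all genes, and 14 called lower (38.9% against 6.43%). Leaving out either Sox4f/f mouse gave 3 members called lower (8.33% and 8.11%, against 3.14% and 3.9% of all genes).

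Among 16 import genes that the rule did not name, 4 were called lower, beside 8.28% of all genes. Of these 16, 13 lay below without overlap, beside 29.6% of all genes, and the median was -0.256. That median was -0.277 and -0.293 without Sox4f/f mouse 1 or 2. On a common sum of all FPKM 1 gene of the list was called lower, beside 2.56% of all genes. The 4 genes called as deposited included Oxa1l, the insertase for proteins made in the matrix (log2 fold change -0.50), and Dnajc15, a J protein of the motor (-0.50). The others were Romo1 (-0.46) and Samm50, which inserts beta-barrels into the outer membrane (-0.46). Samm50 had 94.4 and 103 FPKM in Sox4f/f and 72.4 and 70.1 FPKM in Sox4-MKO. Of 11 inner membrane and intermembrane space proteases and scaffolds, 4 were called lower (beside 8.28% of all genes), with a median of -0.343. That median was -0.416 and -0.295 without Sox4f/f mouse 1 or 2. On a common sum of all FPKM 2 were called lower, beside 2.56% of all genes. On that scale 2 were called higher, as were 1877 of all 12877 genes. The 4 were the disaggregase Clpb (log2 fold change -0.66), the AAA protease Afg3l2 (-0.61) and the prohibitins Phb (-0.46) and Phb2 (-0.45), which form a ring scaffold around it. Clpb had 89.3 and 90.6 FPKM against 56.3 and 56.8 FPKM, and Afg3l2 had 90.8 and 79.3 FPKM against 57.1 and 53.2 FPKM. In the same list, Oma1 and Yme1l1, the proteases that cut the fusion protein OPA1, were higher in both Sox4-MKO libraries without being called. Oma1 had 4.94 and 5.79 FPKM against 8.29 and 7.04 FPKM (log2 fold change 0.44 ± 0.17) and Yme1l1 28.2 and 27.8 FPKM against 32.6 and 35.3 FPKM (0.27 ± 0.12), a separation that 21.7% of all genes showed upward. They are the genes called higher on a common sum of all FPKM.

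Chaperones of the endoplasmic reticulum fold secreted and membrane proteins. Of 12, 1 was called higher by limma (beside 7.95% of all genes) and 0 lower. Above Sox4f/f without overlap lay 6 (beside 21.7% of all genes), and the median was 0.203. The called gene was Sdf2l1, with 4.85 and 4.88 FPKM against 7.36 and 9.43 FPKM (log2 fold change 0.67 ± 0.18, adjusted p = 0.229, limma). With 1 library left out the median of this list ran from 0.043 to 0.402. On a common sum of all FPKM 6 were called higher, as were 1877 of all 12877 genes. Whether this list differed from the members was not tested. Respiratory chain subunits, which the import machinery serves, had 46 of 83 genes called lower (beside 8.28% of all genes) and 3 higher, with a median of -0.415. That median was -0.412 and -0.382 without Sox4f/f mouse 1 or 2, and -0.527 and -0.298 without Sox4-MKO mouse 1 or 2. With the replicate block 28 were called lower, beside 7.28% of all genes. On a common sum of all FPKM 12 were, beside 2.56% of all genes. On a common sum of all FPKM the medians were 0.411 for the endoplasmic reticulum list, -0.202 for the respiratory chain, -0.045 for the other import genes and -0.141 for the proteases and scaffolds.

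**Figure D4:**
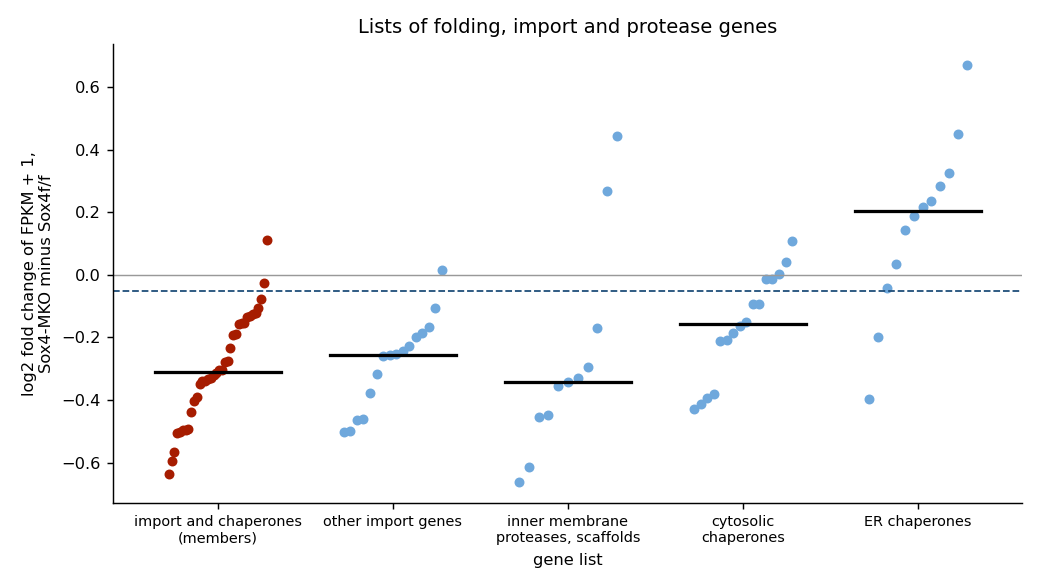
Log2 fold change (Sox4-MKO minus Sox4f/f, FPKM + 1) of every tested gene of 5 lists, sorted within a list, with black bars at the medians and a dashed line at the median of all genes tested. The medians are -0.310 for the members, -0.256 for other import genes, -0.343 for inner membrane proteases and scaffolds, -0.157 for cytosolic and 0.203 for endoplasmic reticulum chaperones. On a common sum of all FPKM the cytosolic median turns to 0.054.

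Of 9 regulators known to act on mitochondrial or stress genes, 4 were called lower and 0 higher. On a common sum of all FPKM 2 were called lower, beside 2.56% of all genes. Their median was -0.496 as deposited and ran from -0.534 to -0.303 with 1 library left out. In the values as deposited, 8.28% of all genes were called lower. Atf4, the stress factor of the integrated stress response, had 98.4 and 104 FPKM in Sox4f/f and 69.2 and 69.8 FPKM in Sox4-MKO (log2 fold change -0.54), and Ddit3 (CHOP) 43.9 and 29.7 FPKM against 24.7 and 18.3 FPKM (-0.74). Esrra, the nuclear receptor ERR alpha, had 88.7 and 80.4 FPKM against 63.8 and 54.2 FPKM (-0.52), and its coactivator Ppargc1a 48.2 and 22.4 FPKM against 13.2 and 14.2 FPKM (-1.21). Hsf1, which drives heat shock genes, had 15.8 and 15.9 FPKM against 14.3 and 13.4 FPKM and was not called (log2 fold change -0.19 ± 0.13), nor were Atf5, Nrf1, Gabpa and Yy1.

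Promoter windows were found for 34 members, 31 of them tested. The motif most often held was the ETS core CCGGAAG, searched on both strands, in 14 of the 31 (45.2%), against 20.1% of tested genes and 9.93% of all genes with a window. Of the 9 called members with a window, 1 held it, Clpp. In Hspd1 and Hspe1 its matches overlap the heat shock units printed above. The EBF core CCCNNGGG was in 6 of 31 (19.4%), among them Timm50 and Timm44, against 21.5% of tested genes. The NRF1 core GCGCATGCG was in Clpx and Timm13 (6.45% against 4.12%). The ERR element TCAAGGTCA was in Timm8b (3.23% against 0.309%) and YY1's AAGATGGCG in Timm50 (3.23% against 3.66%). The CHOP and ATF4 composite TGATGCAA was in 0 members, against 0.69% of tested genes. Stretches are shown for the ETS core in members of 4 roles and for the EBF and NRF1 cores in called members and Clpx, with the match on the printed strand or its reverse complement in capitals.
Tomm70a, ETS, chr16:57121625-57121649, plus strand: cttctgaccCCGGAAGtggttctcc
Timm8b, ETS, chr9:50603880-50603904, plus strand: aagcgtgaaCCGGAAGgcaggagac
Pmpcb, ETS, chr5:21737135-21737159, plus strand: agtcatgacCCGGAAGtacatctcc
Clpp, ETS, chr17:56990290-56990313, plus strand: gttgtagttCCGGAAGccaagccg
Timm50, EBF, chr7:28312232-28312257, minus strand: tccttagggCCCCAGGGggcgtggtg
Timm44, EBF, chr8:4275966-4275991, minus strand: ctcctcctcCCCCCGGGttttcccag
Timm13, NRF1, chr10:80901145-80901171, minus strand: tatattgtaCGCATGCGCagcggggag
Clpx, NRF1, chr9:65294164-65294190, plus strand: tagtctccaCGCATGCGCagcgtaaac

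Markers of some other cell types were called higher in Sox4-MKO, and those of others were not called. All 10 skeletal muscle markers had positive log2 fold changes and 8 were called higher, beside 7.95% of all genes. All 5 fibroblast and progenitor markers were called higher, with sums of 274 and 324 FPKM in Sox4f/f and 684 and 622 FPKM in Sox4-MKO, as were 4 of 6 macrophage markers (96.7 and 135 against 212 and 187 FPKM) and 3 of 4 mast cell markers (11.2 and 12.5 against 38.5 and 33.4 FPKM). Of 5 brown adipocyte markers 3 were called lower (beside 8.28% of all genes), with sums of 3788 and 3734 against 1753 and 2142 FPKM. General adipocyte markers overlapped, at 8935 and 9009 against 8175 and 10641 FPKM, as did endothelial markers at 127 and 162 against 100 and 149 FPKM, with 0 called in either list. B and T cell markers summed to between 1.63 and 5.56 FPKM, with Ms4a1 at 0 in Sox4-MKO mouse 1, and of the Schwann cell markers 0 of 2 tested were called. The part of these cells in the differences of the import and chaperone genes was not tested.

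Several members overlap a gene on the opposite strand, among them Tomm6 with Tomm6os, Timm9 with Tomm20l, Pam16 with Glis2, Timm13 with Tmprss9 and Trap1 with Dnase1. The descriptions of the library kit disagree and the counting setting is not given, so how reads in these overlaps were assigned is uncertain. Of 14 rows for processed copies of members, chiefly of Hspd1 and Hspe1, 10 were at 0 in all libraries and the highest value was 2.94 FPKM. Fragments of such copies may have been counted for the parent genes or the reverse.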

How the data were processed

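BAT of 2 Sox4f/f and 2 Sox4-MKO mice was sequenced, 1 library per mouse. The labels describe a column and a stranded mRNA kit, the methods TRIzol and TruSeq. The submitters' processing notes name Cufflinks 2.1.1, Cuffdiff and mm10, and the aligner and annotation are not given in the sources used here. The authors deposited FPKM per gene, relative to gene length and mapped fragments, and no counts. Values were fitted with limma 3.58.1 (R 4.3.3) on log2(FPKM + 1), which understates changes of low genes, with genotype as the only term and a trended prior, over 12877 genes with an averaged FPKM above 1 in a genotype, after a test on simulated data. p-values are two-sided, and adjusted p-values are Benjamini-Hochberg over these genes. Values per library are given for members called, Tomm20, the highest member of each role, and their paralogues or promoter partners, and for some others. The members and lists were chosen with earlier results of these data known. Symbols of 39 members matched GENCODE M21, and 5 had no RefSeq window and were not searched. Depth was estimated from genes with 1 transcript of at least 1500 nt. The alternatives tried were the mouse number as a block, each library left out, 4 rescalings (a common sum of all FPKM chosen after seeing the data), a pseudocount of 0.1, an FPKM limit of 5 or none, and no moderation. Other assays of the study were not analysed here.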

Additional observations from a re-analysis of the deposited data

How the results depend on the processing

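With 12 members called lower as deposited, a replicate block gave 9 (25%, against 7.28% of all genes). Deviations of same-numbered libraries correlated at -0.012 over 12877 genes, so no shared deviation was seen. With 2 mice a group, this cannot show whether the numbers pair littermates or batches. Leaving out 1 library gave 3 to 14 called members (8.11% to 38.9%, against 3.14% to 7.93% of all genes) and a median log2 fold change of -0.334 to -0.253. The median was -0.242 with quantile normalization and -0.243 on a common sum without mitochondrially encoded genes and Ucp1. On a common sum of all FPKM, chosen after seeing the data, 3 members were called lower (8.33%, against 2.56% of all genes). Below without overlap lay 13 members (36.1%, against 12.9% of all genes), and the members' median was -0.105. Over all genes 330 were then called lower and 1877 higher, against 1066 and 1024 as deposited. The cause was not tested. On that scale the sign turned for Tomm20 (0.017), Tomm6 (0.137), Timm8b (0.187), Timm17b (0.064), Timm23 (0.025), Pmpca (0.056) and Pmpcb (0.091), and on the sum without mitochondrially encoded genes for Timm8b (0.045). Leaving out 1 library, log2 fold changes ran from -0.399 to 0.136 for Timm17b, -0.110 to 0.057 for Timm8b, -0.195 to 0.043 for Tomm6, -0.001 to 0.224 for Tomm34 and -0.390 to 0.084 for Pmpca. Scaling to a common median, another pseudocount, the FPKM limits and no moderation gave 11 to 16 members called lower, against 5.65% to 11.1% of all genes. Of the 12, no moderation kept 10 and gained 2, and no FPKM limit kept 12 and gained 4. With 2 mice a group, no sample could be tested as an outlier.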
